A study of Mus musculus with 6 samples.

Results

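The genes described here are 51 lysosomal genes of the mouse: 10 proteases, 16 glycosidases and sulfatases, 7 lipid enzymes, activators and carriers, 9 membrane proteins, 6 subunits of the proton pump, and Grn, Acp2 and Tfeb. They were listed by name and chosen by their known lysosomal role with the null against control ratios of these libraries in view, so those ratios are given as a description. All 51 had a row in the count tables, which held 23284 gene symbols, and 47 of the 51 had enough reads to be tested among the 10512 genes that passed the filter on low counts. The RNA came from Ter119+CD71+ cells, that is erythroblasts, the nucleated precursors of red cells, sorted from C57BL/6 embryos at embryonic stage E10.5. The Setd8 null group held 3 libraries of genotype SETD8fl/fl EpoR Cre, in which floxed Setd8 alleles meet Cre recombinase driven from Epor, the gene of the erythropoietin receptor of the red cell lineage. Of the 3 control libraries, replicates 1 and 3 were Setd8 +/+ EpoRCre, and replicate 2 was Setd8 fl/fl EpoR WT and so carried the floxed alleles without Cre. Setd8 is the enzyme of histone H4 lysine 20 monomethylation. The design text names blood as the source of the cells and the sample labels name liver.

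Lysosomes are acidic compartments in which proteases, glycosidases, sulfatases and lipases break down macromolecules brought in by endocytosis or autophagy. A proton pump, the V-type ATPase, keeps them acidic, and membrane glycoproteins such as Lamp1 and Lamp2 line them. Many lysosomal genes carry an E-box in their promoter that is bound by TFEB and its relatives TFE3 and MITF. Maturing red cells clear their organelles through lysosomes, and macrophages are rich in them.

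The depth was 21381086, 16547029 and 15203019 counts in null replicates 1 to 3, against 7756940, 21434719 and 19806956 in control replicates 1 to 3. Levels are CPM, counts relative to the library total scaled by TMM factors, and 3 counts corresponded to between 0.139 and 0.444 CPM. The titles of null replicates 2 and 3 and of control replicate 3 end in a letter and those of the other 3 do not, and the lettered and unlettered libraries differed widely (17.7% of tested genes were higher and 10.9% lower in the lettered ones). The model therefore held the title set beside the genotype. Setd8 itself had 48.8, 100.1 and 96.2 CPM in null libraries, against 73.8, 74.7 and 203 CPM in control libraries. The groups overlapped across the title sets, and the fit gave Setd8 a log2 ratio of -0.83 (SE 0.17), lower in null cells (adjusted p = 0.009106, edgeR quasi-likelihood test). A gene count does not separate the floxed segment from the rest of the transcript. The 15 erythroid markers summed to 505981, 247762 and 215342 CPM in null libraries, against 527745, 515317 and 348996 CPM in control libraries. The groups overlapped, and the ratio of the means was 0.70 (0.66 within the lettered and 0.97 within the unlettered titles). Hba-a1 and Hba-a2 were at or near 0 in all 6 libraries. Alignments that were not unique were kept out of the counts. They made up 32.4% in null replicate 1, and 24.1% and 22.5% in control replicates 1 and 2. A count near 0 for Hba-a1 and Hba-a2 thus does not show absent RNA. Of the 15 erythroid markers 13 were tested, and 11 had a negative log2 ratio. Their median log2 ratio was -0.21, against 0.044 for all tested genes. As lower in null cells 2 passed, Hba-x and Tfrc, where 4.16% of all tested genes were lower. Tfrc, which encodes the sort marker CD71, had 192, 273 and 265 CPM in null libraries, against 398, 435 and 443 CPM in control libraries (log2 ratio -0.92, SE 0.16, adjusted p = 0.00363, edgeR). Y-linked transcripts were present in the 3 null libraries and in control replicate 1, and not in control replicates 2 and 3. Of the 51 genes, 4 are X-linked, namely Gla, Ids, Lamp2 and Atp6ap1.

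Of the 51 genes, 43 had a promoter window in RefSeq (GRCm38.p6; 250 bases before to 50 bases after the annotated start), and each window was searched on both strands for the E-box CACGTG and for its longer forms TCACGTG and TCACGTGA, each of which contains the shorter one. The core CACGTG was found for 15 of the 43 genes (34.9%), against 12.5% of the tested genes with a window and 8.09% of all genes with a window. The full form TCACGTGA was found for 6 genes (14.0%), against 2.59% and 1.12%. Those 6 windows are shown because they hold the palindrome in full. They read 5′ to 3′ along the gene, with each E-box, with the flanking T or A where present, in capitals.
Ctsa promoter, chr2:164833523-164833822, plus strand: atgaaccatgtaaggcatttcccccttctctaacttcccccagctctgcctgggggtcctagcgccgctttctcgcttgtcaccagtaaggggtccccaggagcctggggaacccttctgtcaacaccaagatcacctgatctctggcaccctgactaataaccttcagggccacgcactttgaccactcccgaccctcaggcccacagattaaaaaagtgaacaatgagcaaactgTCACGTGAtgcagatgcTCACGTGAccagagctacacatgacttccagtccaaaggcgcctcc
Ctsd promoter, chr7:142387778-142388077, minus strand: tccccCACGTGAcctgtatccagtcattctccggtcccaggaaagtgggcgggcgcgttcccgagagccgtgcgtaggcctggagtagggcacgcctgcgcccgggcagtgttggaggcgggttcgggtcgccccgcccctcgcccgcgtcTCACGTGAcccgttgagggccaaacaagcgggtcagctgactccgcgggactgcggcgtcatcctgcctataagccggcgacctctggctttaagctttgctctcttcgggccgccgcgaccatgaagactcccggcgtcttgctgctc
Gla promoter, chrX:134600956-134601255, minus strand: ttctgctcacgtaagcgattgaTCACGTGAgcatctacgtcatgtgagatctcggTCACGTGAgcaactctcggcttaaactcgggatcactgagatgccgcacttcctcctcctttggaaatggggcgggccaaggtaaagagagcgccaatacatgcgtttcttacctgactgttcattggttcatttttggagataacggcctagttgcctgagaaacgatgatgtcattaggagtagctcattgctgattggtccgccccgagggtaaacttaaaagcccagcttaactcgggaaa
Atp6v0d1 promoter, chr8:105566015-105566314, minus strand: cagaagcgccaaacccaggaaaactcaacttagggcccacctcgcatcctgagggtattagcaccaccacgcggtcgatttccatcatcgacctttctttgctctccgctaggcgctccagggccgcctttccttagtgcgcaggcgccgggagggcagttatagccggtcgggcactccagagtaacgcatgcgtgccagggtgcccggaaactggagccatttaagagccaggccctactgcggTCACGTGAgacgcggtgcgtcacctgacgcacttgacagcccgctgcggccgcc
Mcoln1 promoter, chr8:3500269-3500568, plus strand: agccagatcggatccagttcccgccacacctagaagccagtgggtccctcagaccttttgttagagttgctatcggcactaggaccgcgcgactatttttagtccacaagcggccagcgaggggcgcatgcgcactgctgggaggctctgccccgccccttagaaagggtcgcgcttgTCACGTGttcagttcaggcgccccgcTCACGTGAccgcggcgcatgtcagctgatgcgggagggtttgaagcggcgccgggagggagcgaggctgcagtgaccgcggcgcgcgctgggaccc
Atp6v1a promoter, chr16:44139210-44139509, minus strand: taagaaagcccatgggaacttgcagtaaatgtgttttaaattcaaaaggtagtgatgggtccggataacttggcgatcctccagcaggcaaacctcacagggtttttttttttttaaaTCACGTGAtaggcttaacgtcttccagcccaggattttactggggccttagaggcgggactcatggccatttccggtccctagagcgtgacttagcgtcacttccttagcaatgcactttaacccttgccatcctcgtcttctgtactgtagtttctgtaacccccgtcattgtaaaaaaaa

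The Ctsa window holds the full form at 2 places around the start, the Gla window at 2 places upstream, and the Atp6v0d1 window at the start. The Ctsd and Mcoln1 windows each hold 1 full form and a second, shorter one, and the Atp6v1a window holds 1. Ctsa, Ctsd, Gla and Atp6v0d1 were among the genes higher in null cells, and Mcoln1 and Atp6v1a did not pass the test. Among the 18 genes that passed, all with a window, 7 held the core (38.9%), against 8 of the other 25 genes with a window (32.0%). The 7-base form was held by 5 of the 18 (27.8%), against 8 of the 25 (32.0%), and the 8-base form by 4 (22.2%), against 2 (8.0%). A match is a string in the reference sequence and says nothing of binding in these cells.

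**Figure D1:**
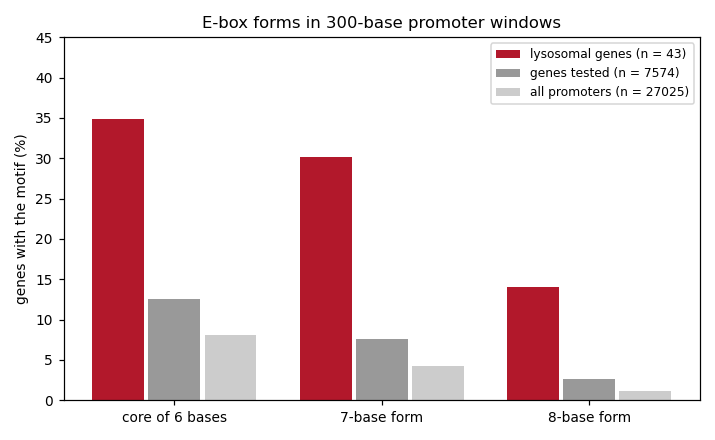
Share of genes, in percent, whose 300-base promoter window holds the 6-base E-box core, its 7-base form or its 8-base form, for the lysosomal genes, the genes tested and all promoters. The lysosomal genes have the highest bar for each form, at 34.9%, 30.2% and 14.0%.

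In Setd8 null erythroblasts 18 of the 47 tested genes were higher and 0 were lower than in controls at an adjusted p of 0.05 (edgeR quasi-likelihood test with title set and genotype, Benjamini-Hochberg adjustment over 10512 genes), where 8.65% of all tested genes were higher and 4.16% lower. At an unadjusted p of 0.05 the same test gave 27 higher and 0 lower (16.4% and 11.5% of all tested genes). DESeq2 also gave 0 lower at an adjusted p of 0.05, where it called 8.39% of all tested genes lower. A gene near 0 in controls, such as Ctsf with 26 control reads, could not have passed the filter on low counts through the control group. A lower call could hardly arise for such a gene. The median log2 ratio of the 47 was 1.03, against 0.044 for all tested genes. In bulk RNA, fewer cells of a type and less RNA per cell cannot be told apart. The 18 were spread over the classes: 6 of 9 tested proteases, 5 of 14 glycosidases and sulfatases, 3 of 6 lipid genes, 2 of 9 membrane proteins, 1 of 6 pump subunits, and Grn. The number depended on the model. With genotype as the only term 4 genes passed (Cd63, Cd68, Ctsl and Man2b1; 1.14% of all tested genes were higher and 0.00951% lower), with the presence of Y-linked transcripts as a further term 8 passed (1.53% of all tested genes), and without null replicate 1, the only null library of the unlettered titles, 4 passed (Ctsd, Lgmn, Man2b1 and Npc2; 1.49%).

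Summed over the 51 genes, the level was 4036, 3917 and 3734 CPM in null libraries, against 2288, 2313 and 2337 CPM in control libraries. The groups did not overlap, and the ratio of the means was 1.68 (1.64 within the lettered and 1.75 within the unlettered titles). Gene by gene, the lowest null library exceeded the highest control for 23 of the 47 tested genes (14.9% of all tested genes did so), the order was the reverse for Ctsb alone (9.16%), and the groups overlapped for the other 23. By plain library totals the groups were apart in the same sense for 25 genes (16.4% of all tested genes) and in the reverse one for 0. The 18 genes that passed were apart under each scaling. They had been picked by a test on the same libraries, so this adds no further support. The ratio was above 0 in both title sets for 33 of the 47 genes (36.3% of all tested genes), and it had the same sign in both for 36 of the 47 (68.7% of all tested genes).

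**Figure D2:**
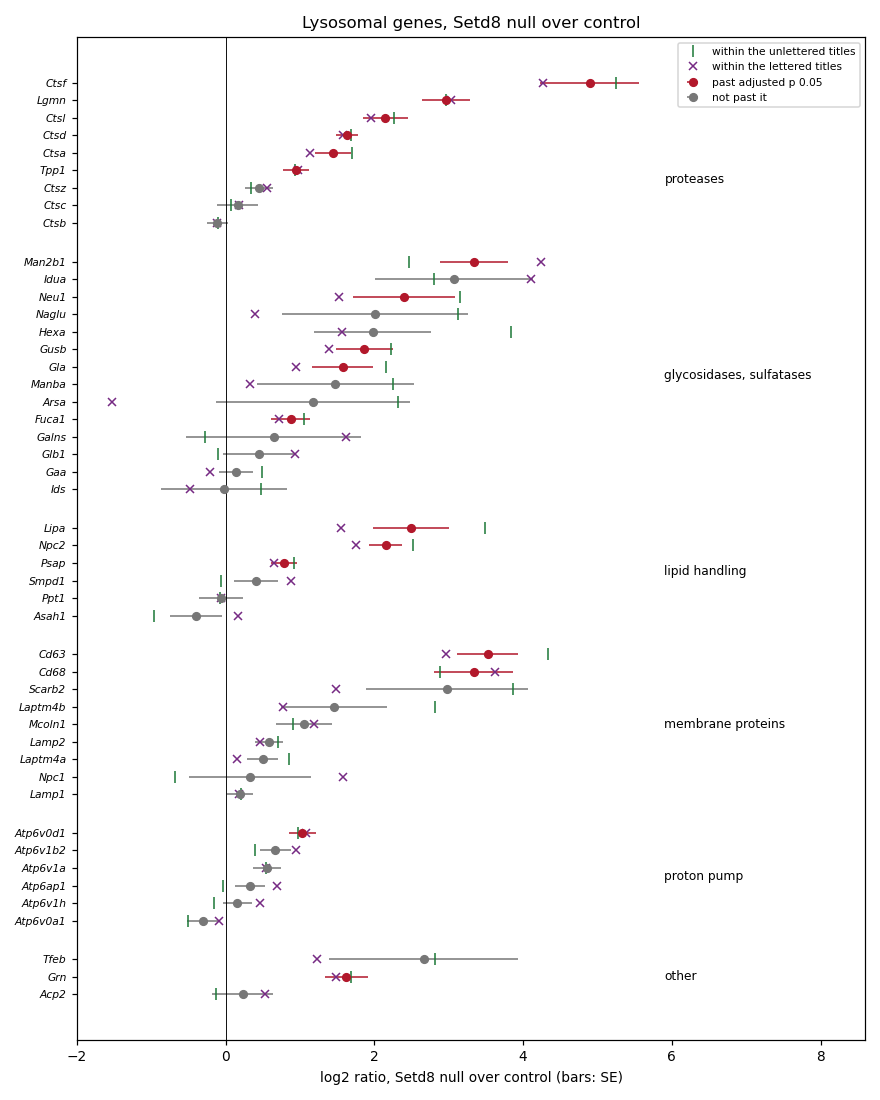
Log2 ratio of Setd8 null over control for the 47 tested lysosomal genes by class; dots with SE bars are the fit with title set and genotype, ticks and crosses the ratios within the unlettered and the lettered titles. The 18 red dots are the genes past adjusted p 0.05, all to the right of 0, and 5 genes lie to the left of it.

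Macrophage transcripts, as a sum, also stood higher in null than in control libraries. The 21 macrophage markers summed to 31.6, 45.8 and 125 CPM in null libraries, against 2.66, 0.904 and 13.1 CPM in control libraries, with 1 marker (Marco) at 0 in all null libraries and 3 markers at 0 in all controls. C1qb, a chain of complement C1q, had 4.96, 7.84 and 16.4 CPM in null libraries, against 0, 0 and 2.14 CPM in control libraries. Csf1r, the receptor for macrophage colony-stimulating factor, had 9.05, 6.56 and 18.0 CPM in null libraries, against 0, 0 and 1.58 CPM in control libraries. Lyz2, lysozyme of macrophages and granulocytes, had 1.52, 0.0513 and 16.5 CPM in null libraries, against 0, 0 and 0.418 CPM in control libraries. C1qb and Csf1r did not overlap between the groups (14.9% of all tested genes had every null library above every control), while Lyz2 did and was high in null replicate 3 alone. Of the 21 markers 10 were tested and 4 were higher (C1qb, Csf1r, Fcgr3 and Tyrobp), 0 lower. Of all tested genes 8.65% were higher and 4.16% lower. These 4 markers had 0 reads in control replicates 1 and 2. They could not have passed the filter on low counts through the control group, so a lower call could hardly arise for them.

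Null replicate 3 held the highest macrophage sum of the null libraries under each of 3 scalings. For the lysosomal sum the order of the null libraries turned with the scaling: null replicate 3 was the lowest with TMM factors, but the highest by plain library totals (3234, 4617 and 4758 CPM in null replicates 1 to 3) and without globin counts (5382, 6442 and 6470 CPM). The part of macrophage RNA in the lysosomal differences was not tested. The summed markers of several other cell types stood higher in null libraries as well, though the markers within each list did not move together. Megakaryocyte markers summed to 42.3, 86.1 and 70.4 CPM in null libraries, against 15.2, 14.3 and 35.8 CPM in control libraries. Endothelial markers summed to 26.7, 33.2 and 23.6 CPM in null libraries, against 4.14, 3.72 and 11.9 CPM in control libraries. Blood progenitor markers summed to 11.6, 9.74 and 14.9 CPM in null libraries, against 2.52, 3.30 and 3.16 CPM in control libraries. Granulocyte and mast cell markers summed to 9.40, 1.08 and 66.2 CPM in null libraries, against 0.148, 0 and 1.90 CPM in control libraries. Null replicate 2 fell within the range of the controls for these, while the endothelial and progenitor sums did not overlap between the groups. The megakaryocyte sums were apart with TMM factors and overlapped by plain totals, with 33.9 CPM in null replicate 1 and 38.9 CPM in control replicate 3. Hepatocyte markers summed to 5.60, 0.564 and 3.92 CPM in null libraries, against 0.74, 0.532 and 4.32 CPM in control libraries, and overlapped. The part of these cells in the lysosomal differences was not tested either.

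**Figure D3:**
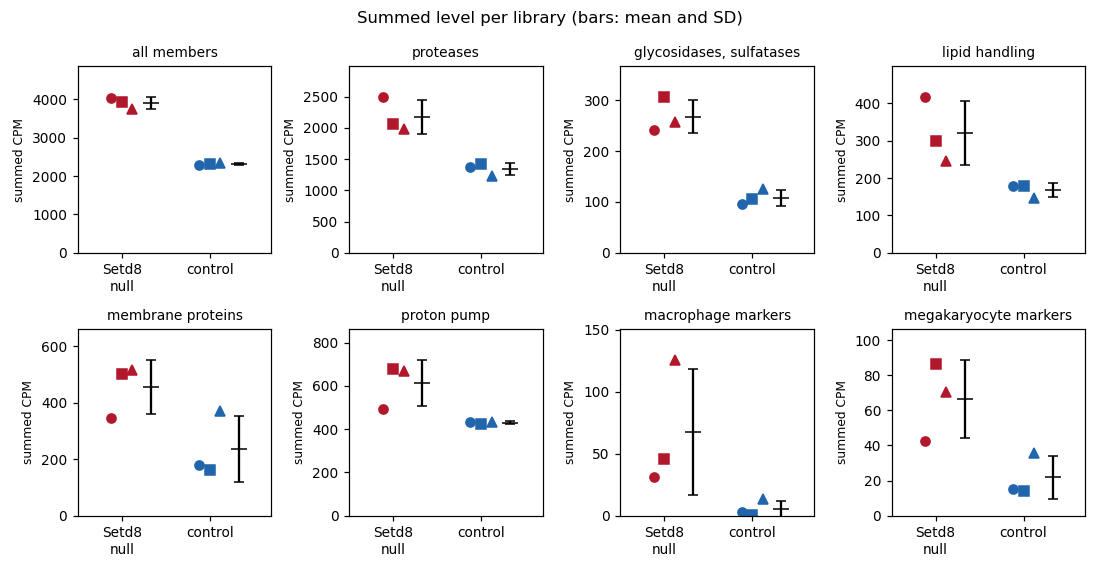
Summed TMM-scaled CPM per library for all 51 lysosomal genes, 5 of their classes, and macrophage and megakaryocyte markers; circles, squares and triangles are replicates 1, 2 and 3, bars are mean and SD of 3 libraries, cut at 0. Null libraries lie above controls in the panels of all members and of the proteases, while the membrane protein sum of null replicate 1 lies below that of control replicate 3.

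The proteases held most of the lysosomal RNA, with a sum of 2489, 2058 and 1987 CPM in null libraries, against 1377, 1418 and 1238 CPM in control libraries. Ctsd, the aspartic protease cathepsin D, had 1261, 937 and 879.9 CPM in null libraries, against 388, 396 and 304 CPM in control libraries. Every null library was above every control, and the log2 ratio was 1.63 (SE 0.14). Ctsb, the cysteine protease cathepsin B, had 722, 638 and 693 CPM in null libraries, against 783, 776 and 724 CPM in control libraries. All null values were below all control values on this scale, but by plain totals the groups overlapped (579, 751 and 883 CPM in null libraries, against 682, 681 and 787 CPM in control libraries), and the log2 ratio of -0.12 (SE 0.14) did not pass. Per length, these were the most abundant transcripts of the set: the mean level of Ctsd was 482 RPKM in null cells and 171 RPKM in control cells, and that of Ctsb 144 RPKM in null cells and 160.5 RPKM in control cells (CPM divided by exon length in kilobases). Within each library, and so free of any scaling between libraries, the counts of Ctsd over those of Ctsb were 1.75, 1.47 and 1.27 in null libraries, against 0.496, 0.51 and 0.42 in control libraries. Ctsd counts thus exceeded Ctsb counts in every null library and in no control, which shows unequal change of the pair and not which of them changed.

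The largest protease ratio belonged to Ctsf, cathepsin F, a cysteine protease with 7.94, 33.1 and 13.2 CPM in null libraries, against 0, 0.266 and 0.975 CPM in control libraries. It was near 0 in every control, with 26 reads in all 3 together, and its log2 ratio was 4.89 (SE 0.66). Lgmn, the asparaginyl endopeptidase legumain that processes other cathepsins, had 104, 66.3 and 43.3 CPM in null libraries, against 9.18, 19.1 and 6.46 CPM in control libraries. The groups were apart, at a log2 ratio of 2.96 (SE 0.32). Ctsl, cathepsin L, had 51.2, 51.9 and 28.8 CPM in null libraries, against 10.1, 11.1 and 9.94 CPM in control libraries. The controls lay close together and the log2 ratio was 2.15 (SE 0.30). Ctsa, the carboxypeptidase that protects neuraminidase and beta-galactosidase, had 81.8, 86.3 and 54.7 CPM in null libraries, against 23.7, 26.6 and 31.2 CPM in control libraries, with no overlap and a log2 ratio of 1.44 (SE 0.24). Tpp1, a tripeptidyl peptidase, had 143, 145 and 137 CPM in null libraries, against 67.0, 84.3 and 72.2 CPM in control libraries. The groups did not overlap, at a log2 ratio of 0.94 (SE 0.17).

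Not all proteases followed. Ctsz, a carboxypeptidase, averaged 75.1 ± 8.88 CPM in null cells and 60.5 ± 11.1 CPM in control cells (SD, n = 3 each), and Ctsc, the dipeptidyl peptidase that activates granule proteases, averaged 43.4 ± 16.8 CPM in null cells and 35.3 ± 5.28 CPM in control cells. Both overlapped between the groups. Ctsh, an aminopeptidase, was hardly detected, with 0, 0 and 14 reads in null libraries, against 1, 0 and 0 reads in control libraries, and was not tested.

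The glycosidases and sulfatases, which strip sugars and sulfate from glycoproteins, glycolipids and glycosaminoglycans, summed to 242, 306 and 257 CPM in null libraries, against 95.0, 105 and 126 CPM in control libraries, with a ratio of means of 2.47. Man2b1, the lysosomal alpha-mannosidase, had 47.6, 100.1 and 61.2 CPM in null libraries, against 6.66, 10.8 and 4.04 CPM in control libraries. The groups were far apart, with a log2 ratio of 3.34 (SE 0.46), and Man2b1 was the only one of the 18 genes that passed under every alternative model and without any 1 library. Neu1, the lysosomal sialidase, had 5.66, 17.3 and 5.37 CPM in null libraries, against 0.296, 0.904 and 3.30 CPM in control libraries. Null replicate 2 stood well above the other null libraries, which were not far above control replicate 3, and the log2 ratio was 2.40 (SE 0.69). Gusb, beta-glucuronidase, had 20.7, 16.5 and 34.2 CPM in null libraries, against 4.14, 4.52 and 8.96 CPM in control libraries, with no overlap and a log2 ratio of 1.86 (SE 0.38).

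Gla, the X-linked alpha-galactosidase A, had 21.5, 11.5 and 17.2 CPM in null libraries, against 4.44, 5.11 and 7.25 CPM in control libraries. The groups did not overlap, and the log2 ratio was 1.57 (SE 0.41). Fuca1, alpha-fucosidase, had 45.5, 42.9 and 32.1 CPM in null libraries, against 18.2, 26.5 and 22.5 CPM in control libraries. Its log2 ratio was the smallest of the class to pass, at 0.88 (SE 0.26), and it lay just inside the threshold with an adjusted p of 0.04923 (edgeR quasi-likelihood test). Gaa, the acid alpha-glucosidase that degrades glycogen and the member of the class with the highest mean over both groups, had 44.5, 45.4 and 45.4 CPM in null libraries, against 31.8, 31.5 and 52.5 CPM in control libraries. In null cells its mean of 45.1 CPM was below the 69.6 CPM of Man2b1. The third control exceeded every null library, and Gaa did not pass (log2 ratio 0.14, SE 0.23). Idua and Hexa, alpha-iduronidase and the alpha subunit of beta-hexosaminidase, did not overlap between the groups but varied among controls and did not pass (log2 ratios 3.07, SE 1.06, and 1.97, SE 0.79). The other 6 tested members had ratios between -0.02 for Ids and 2.01 for Naglu and overlapped. The sulfatases Arsb, with 0, 2 and 26 reads in null libraries against 0, 1 and 0 in control libraries, and Sgsh, with 7, 94 and 5 reads in null libraries against 0, 3 and 67 in control libraries, were too low to test.

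**Figure D4:**
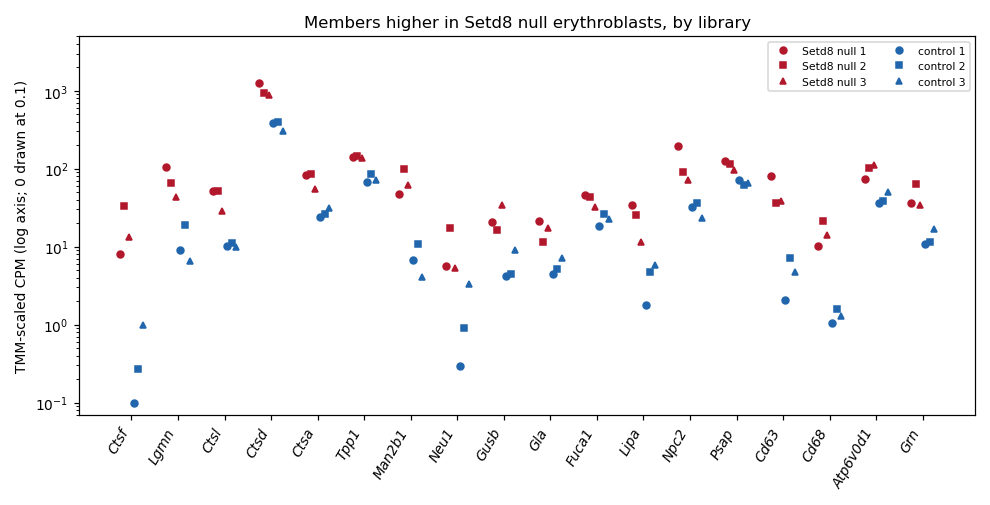
TMM-scaled CPM per library, on a log axis, of the 18 lysosomal genes higher in Setd8 null erythroblasts, with Setd8 null libraries in red and control libraries in blue. For each gene the 3 null points lie above the 3 control points; the 0 of Ctsf in control replicate 1 is drawn at 0.1.

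The genes that handle lipids summed to 416, 299.5 and 246 CPM in null libraries, against 179.8, 178 and 146 CPM in control libraries. Lipa, the acid lipase that frees cholesterol and fatty acids, had 33.7, 25.8 and 11.4 CPM in null libraries, against 1.78, 4.68 and 5.81 CPM in control libraries. Null replicate 3 was the lowest null library but above every control, and the log2 ratio was 2.49 (SE 0.51). Npc2, which hands cholesterol to the membrane protein Npc1, had 195, 90.9 and 70.8 CPM in null libraries, against 31.8, 36.1 and 23.6 CPM in control libraries. The groups were apart at a log2 ratio of 2.15 (SE 0.22). Psap, the precursor of the saposins that activate sphingolipid hydrolases, had 127, 114 and 95.5 CPM in null libraries, against 72.2, 62.6 and 66.4 CPM in control libraries, with a log2 ratio of 0.79 (SE 0.18). The other 3 tested lipid genes did not pass: Smpd1, acid sphingomyelinase, had a log2 ratio of 0.41 (SE 0.30), Ppt1, a palmitoyl thioesterase, -0.07 (SE 0.29), and Asah1, acid ceramidase, -0.40 (SE 0.35). Gm2a, the activator of ganglioside breakdown, had 32, 1 and 15 reads in null libraries, against 0, 1 and 0 in control libraries, and was not tested.

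The membrane proteins summed to 347, 503 and 518 CPM in null libraries, against 178, 161 and 372 CPM in control libraries, and this sum overlapped. Cd63, a tetraspanin of lysosomes and multivesicular bodies, had 80.4, 35.8 and 38.8 CPM in null libraries, against 2.07, 7.13 and 4.69 CPM in control libraries. The lowest null library was several times the highest control, and the log2 ratio was 3.52 (SE 0.42). Cd68, a heavily glycosylated protein also used as a macrophage marker, had 10.2, 21.1 and 14.1 CPM in null libraries, against 1.04, 1.60 and 1.30 CPM in control libraries, with a log2 ratio of 3.33 (SE 0.53). The part of macrophage RNA in Cd68 was not tested. Lamp2, the X-linked receptor of chaperone-mediated autophagy, had 88.5, 77.7 and 82.6 CPM in null libraries, against 49.9, 59.0 and 58.1 CPM in control libraries. The groups did not overlap, but the log2 ratio of 0.58 (SE 0.18) lay just outside the threshold with an adjusted p of 0.0597 (edgeR quasi-likelihood test).

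Lamp1, whose mean CPM over all 6 libraries was the highest of the class although Lamp2 and Laptm4a exceeded it in each unlettered library, had 42.2, 242 and 270.1 CPM in null libraries, against 43.7, 30.4 and 225 CPM in control libraries. Its level followed the titles: each of the 3 lettered libraries was several times above each of the 3 unlettered ones, and the null over control log2 ratio was 0.19 (SE 0.18). The ratio of Lamp2 to Lamp1 counts was 2.1, 0.32 and 0.306 in null libraries, against 1.14, 1.94 and 0.258 in control libraries. Mcoln1, the calcium channel of the lysosome, had 4.08, 27.1 and 24.3 CPM in null libraries, against 1.78, 2.55 and 11.2 CPM in control libraries, and the groups overlapped. Scarb2, the transporter of glucocerebrosidase to the lysosome, had 1.58, 6.82 and 6.30 CPM in null libraries, against 0, 0 and 2.28 CPM in control libraries, and overlapped as well. Neither passed (log2 ratio 1.05, SE 0.38, for Mcoln1 and 2.97, SE 1.09, for Scarb2). Laptm4a and Laptm4b did not overlap between the groups but did not pass (log2 ratios 0.50, SE 0.21, and 1.46, SE 0.72). Npc1, the cholesterol exporter, overlapped and did not pass (log2 ratio 0.33, SE 0.82).

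The proton pump genes summed to 492, 676 and 671 CPM in null libraries, against 435, 423 and 431 CPM in control libraries. The groups were apart on this scale and overlapped by plain totals (394, 797 and 855 CPM in null libraries, against 379, 372 and 469 CPM in control libraries). The only one to pass was Atp6v0d1, a subunit of the membrane-bound sector, with 73.5, 101 and 109.9 CPM in null libraries, against 36.4, 38.5 and 49.7 CPM in control libraries. Its groups did not overlap, with a log2 ratio of 1.03 (SE 0.18). Atp6ap1, an accessory subunit and the pump gene with the highest mean CPM, had 140.1, 168 and 143 CPM in null libraries, against 138, 151 and 96.4 CPM in control libraries. The groups overlapped, and the log2 ratio was 0.32 (SE 0.20). The catalytic sector genes Atp6v1a, Atp6v1b2 and Atp6v1h had log2 ratios of 0.55, 0.67 and 0.15, and Atp6v0a1, of the membrane sector, -0.30. None of these 4 passed, and all overlapped.

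Grn, the precursor of the granulins, had 36.3, 63.5 and 34.6 CPM in null libraries, against 11.0, 11.4 and 16.8 CPM in control libraries. It did not overlap and had a log2 ratio of 1.62 (SE 0.29). Acp2, lysosomal acid phosphatase, averaged 12.2 ± 3.44 CPM in null cells and 12.1 ± 3.88 CPM in control cells (SD, n = 3 each). Tfeb, the transcription factor named for these promoters, was low throughout, with 0.7, 1.85 and 4.13 CPM in null libraries, against 0, 0 and 1.11 CPM in control libraries. Null replicate 1 fell below control replicate 3, and the log2 ratio of 2.66 (SE 1.27) did not pass.

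The title sets gave a comparison that the choice of the genes had not used. Of the 47 genes, 6 were higher in lettered than in unlettered libraries (12.8%, against 17.7% of all tested genes) and 3 were lower (6.38%, against 10.9%). Lamp1 had the lowest adjusted p, at a log2 ratio of 2.61 (SE 0.19, adjusted p = 1.828e-06, edgeR quasi-likelihood test), and Mcoln1 followed with 2.50 (SE 0.39, adjusted p = 0.0004733). Scarb2 (3.54, SE 1.11), Ctsf (1.83, SE 0.62), Atp6v0a1 (1.08, SE 0.23) and Atp6v1b2 (1.07, SE 0.21) were also higher in lettered libraries, and Lgmn (-1.03, SE 0.31), Npc2 (-0.91, SE 0.21) and Ctsd (-0.42, SE 0.14) were lower. Without null replicate 1, 3 genes were higher and 0 lower (12.1% and 4.45% of all tested genes). Without control replicate 2, 1 was lower (7.93%). A difference of the genotype ratio between the title sets was called for 0 of the 47 genes by the edgeR quasi-likelihood test of the interaction (0.00951% of all tested genes), and 3 genes, Man2b1, Scarb2 and Atp6ap1, had an unadjusted p under 0.05 (6.38%, against 7.21%). This test had 2 residual degrees of freedom. The ratio had opposite signs in the 2 sets for 11 genes, Arsa (-1.53 in lettered and 2.31 in unlettered libraries) and Npc1 (1.57 in lettered and -0.69 in unlettered libraries) among them, and none of these 11 had passed.

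**Figure D5:**
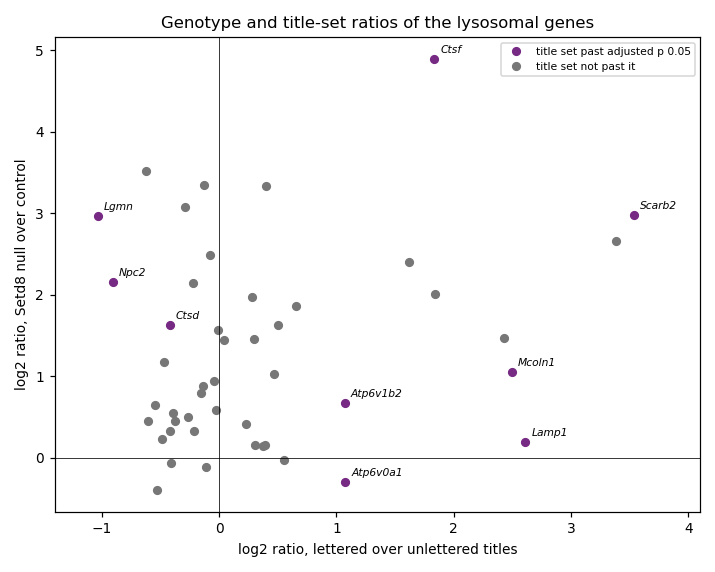
Log2 ratio of Setd8 null over control (vertical) against log2 ratio of lettered over unlettered titles (horizontal) for the 47 tested lysosomal genes; named purple points passed adjusted p 0.05 for the title set. Lamp1 and Mcoln1 lie far to the right with genotype ratios of 0.19 and 1.05, and Lgmn, Npc2 and Ctsd lie to the left with genotype ratios above 1.

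Beyond the 51 genes, 91 further lysosomal genes were listed, of which 79 were tested. Among them 10 were higher (12.7%, against 8.65% of all tested genes) and 0 lower (against 4.16%) in null cells by the edgeR quasi-likelihood test. The higher ones include Scpep1 and Laptm5, with 0 and 9 control reads, which could not have passed the filter on low counts through the control group. A lower call could hardly arise for these. At an unadjusted p under 0.05 the same test gave 18 higher and 3 lower, against 16.4% and 11.5% of all tested genes. By list, 3 of 20 other enzymes, 3 of 18 other membrane proteins, 2 of 11 other pump subunits, 1 of 14 sorting genes and 1 of 16 genes of the TFEB family and its control were higher. Hyal1, a hyaluronidase, had 20.3, 17.1 and 10.9 CPM in null libraries, against 0.74, 0.691 and 0.464 CPM in control libraries. The groups were apart at a log2 ratio of 4.86 (SE 0.52, adjusted p = 0.0001961, edgeR). Laptm5, a lysosomal membrane protein of blood cells, had 29.6, 22.0 and 25.5 CPM in null libraries, against 0, 0.0532 and 0.372 CPM in control libraries, which held 9 reads of it in all. The groups were apart (log2 ratio 7.08, SE 0.65), and the part of other blood cells in Laptm5 was not tested.

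Scpep1, a serine carboxypeptidase, had 142 reads in null libraries together and 0 in control libraries, so that it was at least 39.8-fold higher against a floor of 3 counts over the control group. With Scpep1 at that bound the median log2 ratio of the other enzymes was 0.54. Aga, aspartylglucosaminidase, and Ctns, the cystine exporter, had log2 ratios of 2.07 (SE 0.33) and 1.85 (SE 0.44). Ostm1, a partner of a chloride transporter, had 1.12 (SE 0.29), with groups that overlapped, and the pump subunits Atp6v1e1 and Atp6v1d had 1.10 (SE 0.20) and 1.04 (SE 0.19). Gga2, an adaptor that sorts enzymes to the lysosome, had 0.64 (SE 0.19) and also overlapped. Tfe3, the relative of Tfeb that binds the same E-box, had 18.1, 42.8 and 37.0 CPM in null libraries, against 11.7, 4.31 and 12.3 CPM in control libraries. Every null library was above every control, and Tfe3 passed with a log2 ratio of 1.47 (SE 0.39, adjusted p = 0.03033, edgeR).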

How the data were processed

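Gene counts of polyadenylated RNA were deposited by the authors as 1 table per library, in raw whole numbers. The tools were, per the submitters' processing notes, FastQC, Trimmomatic 0.32, TopHat2 2.1.0, HTSeq 0.6.1 and edgeR, with genome build mm9. Whether counting used strand is not stated in these sources, so overlapping genes on opposite strands cannot be told apart. The 3 unlettered tables carried date-like symbols (25 per table, mapped back) and summary lines, which were kept out of library sizes. Reads assigned to no feature made up 6.07% in null replicate 1, and 42.9% and 7.72% in control replicates 1 and 2; the lettered tables held no such lines.

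The tests were run with edgeR 4.0.16 in R 4.3.3: filterByExpr, TMM factors, estimateDisp, glmQLFit (robust) and glmQLFTest with title set and genotype as terms, 2-sided, Benjamini-Hochberg adjustment over 10512 genes, threshold 0.05. That fit had 3 residual degrees of freedom. The filter kept a gene with enough reads in a single group. DESeq2 1.42.0 was an alternative. Ratios within title sets are differences of mean log2 CPM (prior count 2). Levels per length used merged exon lengths of GENCODE vM21, and promoters came from RefSeq, on another build than the counts. The test was checked on counts simulated from the model fitted to these libraries. Such a check cannot show how the test holds where the libraries depart from that model. Floors of 3 counts cover counting error only. Whether each replicate is a separate embryo is not stated in the labels, and p-values reflect only the spread between the samples at hand, which may be technical. No pair within a group was a duplicate (chi-square per degree of freedom at least 21.9).

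The members and lists were chosen with earlier results of these data known. Named were the members of each class past the threshold, the one with the highest mean CPM, Tfeb, up to 3 genes past it of each other lysosomal list, C1qb, Lyz2, Csf1r and Setd8; other members are named with their values.

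The separation of the groups by plain totals and without globin counts, gene by gene and for the marker sums, was added after seeing the data.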

Additional observations from a re-analysis of the deposited data

How the results depend on the processing

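All 18 genes that passed kept their sign under every alternative run, and 1 (Man2b1) passed under all of them. Against 18 of 47 genes higher (8.65% of all tested genes), genotype as the only term gave 4 (1.14%), the added Y-linked term 8 (1.53%), DESeq2 size factors 17 (8.30%), upper-quartile factors 20 (9.12%) and DESeq2 23 (12%). With other genes tested, no filter gave 22 of 51 (5.99%) and at least 1 CPM in every library 18 of 34 (9.11%). Leaving out 1 library gave 4 to 18 higher for genotype (1.49% to 7.91% of all tested genes). For the title set it gave 3 to 7 higher (9.51% to 15.1% of all tested genes) and 0 to 3 lower (4.45% to 10.1%). The ratio of the summed CPM was moved by plain totals to 1.84 for proteases, 2.83 for glycosidases and sulfatases, 1.68 for the pump and 1.92 for all members, and by removal of globin counts to 1.62 for all members. The cause was not tested. Log2 ratios that changed sign belonged to genes that had not passed: with the Y-linked term Glb1 (-0.26), Ids (1.05), Ppt1 (0.0044), Lamp1 (-0.13) and Npc1 (-1.23), with genotype alone Ids (0.097) and Atp6v0a1 (0.11), with upper-quartile factors Ids (0.014), and with at least 1 CPM in every library Ppt1 (0.012). Leaving out 1 library moved the log2 ratio between -0.16 and 0.26 for Ctsc, -0.16 and 1.03 for Glb1, -0.22 and 0.48 for Gaa, -0.51 and 1.79 for Galns, -0.081 and 2.43 for Arsa, -0.40 and 0.35 for Ids, -0.99 and 0.16 for Asah1, -0.086 and 0.88 for Smpd1, -0.99 and 1.62 for Npc1, -0.18 and 0.46 for Atp6v1h, -0.059 and 0.68 for Atp6ap1, and -0.15 and 0.59 for Acp2. Genes with few control reads, such as Ctsf with 26 and Tfeb with 24, have ratios limited by depth. No paired analysis was possible because the titles give the groups no shared replicate numbers.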
